A study of Mus musculus with 10 samples.

Results

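The proneural basic helix-loop-helix (bHLH) genes Neurog1, Neurog2, Neurod1, Neurod2, Neurod4 and Neurod6 and the T-box genes Eomes and Tbr1 were followed in the open chromatin of neural stem cells from the adult mouse subependymal zone (SEZ). A peak was assigned to a gene when its summit lay within the gene body or 50 kb of it on GRCm38. Peaks of the 10 lists that overlapped were merged into regions, and regions found in 2 or more libraries were kept. Of 99231 such regions, 61 belonged to these 8 genes, out of 21911 protein-coding genes. A test was run where 5 or more libraries had a peak, which left 48 of the 61 among 70627 regions of the whole genome. The 8 genes were taken by name and not by their peaks.

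The series profiled chromatin accessibility by ATAC-seq, in which a transposase cuts and tags accessible DNA, with 50000 cells per library. Cells came from 10-week-old wild-type (WT) mice and mice without Cdkn1b (p27KO), the gene of the cyclin-dependent kinase inhibitor p27. The proliferative state (PRO) was neurospheres, after 3 days in vitro per the labels, fed EGF (20 ng/ml) and FGF (10 ng/ml), with 3 WT and 2 p27KO libraries. The onset of differentiation (DIFF) was cells seeded on Matrigel for 2 days with FGF and then deprived of mitogens for 24 h in 2% fetal bovine serum, again with 3 WT and 2 p27KO libraries. The age of the PRO neurospheres is not given alike throughout the study's description and is uncertain. Mitogen withdrawal, substrate, serum and time change together between PRO and DIFF and cannot be told apart. The labels do not tie the libraries to separate animals, so the p-values measure the spread between these libraries.

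Proneural bHLH factors bind DNA as dimers with E proteins at the E-box, a short motif with the letters CANNTG, and push progenitors out of the cycle and into neuronal differentiation. In the developing cortex Neurog1 and Neurog2 act early, Eomes (Tbr2), Neurod1 and Neurod4 follow in intermediate progenitors and young neurons, and Neurod2, Neurod6 and Tbr1 mark postmitotic glutamatergic neurons. The adult SEZ mainly makes GABAergic olfactory interneurons, and the glutamatergic cascade is known there from a small dorsal population.

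The windows below lie around the summits of distal regions of Neurod4, the neurogenins, Neurod6 and Eomes that the results turn on, with the Neurog1 promoter for contrast. Each is 201 bp of GRCm38.p6 centred on the median summit over the libraries. It is written 5′ to 3′ on the strand of the gene to which the region was assigned. Capitals mark the E-box CANNTG. Of its forms, the bHLH hexamers CAGATG and CAGCTG were also counted apart, CAGATG on both strands. The AP-1 motif, with the letters TGANTCA, was searched on both strands and is in none of these windows. Positions in kb count from the 5′ end of the gene in the direction of transcription.
Neurod4, 34.4 kb upstream, intergenic, chr10:130314574-130314774, minus strand: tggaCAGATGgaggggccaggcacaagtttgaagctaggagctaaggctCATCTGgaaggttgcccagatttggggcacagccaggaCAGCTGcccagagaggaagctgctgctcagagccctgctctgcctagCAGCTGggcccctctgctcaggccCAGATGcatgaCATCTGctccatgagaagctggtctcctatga
Neurod4, 16.9 kb downstream of the 5′ end, intergenic, chr10:130263286-130263486, minus strand: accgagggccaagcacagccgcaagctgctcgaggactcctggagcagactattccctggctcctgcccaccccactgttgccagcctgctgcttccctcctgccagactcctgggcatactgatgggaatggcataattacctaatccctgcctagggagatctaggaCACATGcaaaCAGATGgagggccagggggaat
Neurod4, 20.6 kb downstream of the 5′ end, intergenic, chr10:130259567-130259767, minus strand: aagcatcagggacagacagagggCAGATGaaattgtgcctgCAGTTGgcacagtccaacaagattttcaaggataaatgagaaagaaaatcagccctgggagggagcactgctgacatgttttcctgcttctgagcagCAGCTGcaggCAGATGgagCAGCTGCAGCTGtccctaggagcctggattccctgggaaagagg
Neurog1, 37.3 kb downstream of the 5′ end, intergenic, chr13:56214785-56214985, minus strand: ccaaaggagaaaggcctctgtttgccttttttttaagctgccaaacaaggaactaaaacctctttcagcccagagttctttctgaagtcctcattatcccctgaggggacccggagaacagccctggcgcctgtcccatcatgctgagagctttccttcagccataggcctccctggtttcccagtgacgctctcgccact
Neurog2, 6.9 kb downstream of the 5′ end, intergenic, chr3:127639952-127640152, plus strand: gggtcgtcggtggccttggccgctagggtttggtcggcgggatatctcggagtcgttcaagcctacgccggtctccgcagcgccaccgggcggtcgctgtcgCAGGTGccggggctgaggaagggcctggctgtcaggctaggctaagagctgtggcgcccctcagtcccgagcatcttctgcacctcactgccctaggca
Neurod6, 19.9 kb downstream of the 5′ end, intergenic, chr6:55661239-55661439, minus strand: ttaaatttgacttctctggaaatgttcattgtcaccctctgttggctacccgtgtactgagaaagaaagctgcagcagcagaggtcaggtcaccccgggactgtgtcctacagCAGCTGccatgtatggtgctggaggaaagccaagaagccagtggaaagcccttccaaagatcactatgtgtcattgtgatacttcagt
Eomes, 42.0 kb downstream of the 5′ end, intron of Golga4, chr9:118520105-118520305, plus strand: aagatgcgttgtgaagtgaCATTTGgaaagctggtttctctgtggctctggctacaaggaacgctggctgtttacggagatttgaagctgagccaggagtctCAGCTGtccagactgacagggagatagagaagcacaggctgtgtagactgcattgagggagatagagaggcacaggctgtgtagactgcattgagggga
Neurog1, 0.24 kb upstream, chr13:56252303-56252503, minus strand: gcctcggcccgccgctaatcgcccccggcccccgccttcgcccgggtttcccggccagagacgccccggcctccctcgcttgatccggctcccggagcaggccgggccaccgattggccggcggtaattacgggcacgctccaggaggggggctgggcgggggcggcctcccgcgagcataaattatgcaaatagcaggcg

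The windows 34.4 kb upstream and 20.6 kb downstream at Neurod4 each hold 6 E-boxes, 4 of them CAGATG and 2 CAGCTG in the first, and 2 CAGATG and 3 CAGCTG in the second. Neither holds a CpG. The median window of the 70509 that could be read held 1 E-box, 0.305% held 6 or more and 10.4% held no CpG. Over the tested regions of the 8 genes, 35 of 48 windows (72.9%) had a CANNTG, against 66.9% of all windows. CAGATG was in 22.9% against 16.9%, CAGCTG in 16.7% against 21.4% and TGANTCA in 6.25% against 8.25%. As a set, then, the windows of the 8 genes held these motifs at shares near those of the genome. Their median GC content was 57.2% against 52.2%, and the median observed-to-expected CpG ratio was 0.496 against 0.252. The Neurog1 promoter window, with a GC content of 73.1% and no E-box, stands at the CpG-rich end of this range.

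The 10 lists held 57534 to 91801 peaks, and how many reads each rests on is unknown. The WT DIFF lists were of unequal length, with 88738 peaks in replicate 3 against 61783 and 57534 in replicates 1 and 2. Levels are given as rank percentiles, the percent of the 70627 tested regions with a lower fold enrichment in the same library. Ranks do not remove the difference in length: 5.64% to 28.6% of the tested regions had no peak in a given library, so the weakest peak of a short list ranked higher than that of a long one. The changes were therefore refitted with a common floor, an alternative chosen after seeing the data in which each library kept the ranks of its top 50423 tested regions, as many as the shortest list held, and all others were tied lowest. The promoter region of Cdkn1b was called in 3 of 3 libraries of each WT group and in 0 of 2 of each p27KO group, as the genotype labels state. Of 7 markers of neural stem and progenitor cells, 7 had a promoter peak in every library, against 3 of 6 for SEZ neuroblasts (Dcx had none), 3 of 5 for astrocytes, 5 of 6 for the oligodendrocyte lineage (Sox10 had none), 1 of 5 for microglia and 0 of 5 for endothelial cells and pericytes. Among these markers the promoter of Stmn2, a neuroblast marker, rose at DIFF in WT. Its mean rank percentile was 14.1 in WT PRO and 33.0 in WT DIFF, so the rise rests on weak peaks. Stmn2 did not pass the test in p27KO, and no other neuroblast marker passed in either genotype. Of those, Gad2 ranked lower on average at DIFF in both genotypes, Dlx1 and Dlx2 higher, and Gad1 was mixed. The promoter of Pecam1, an endothelial gene, had a peak in the 5 PRO libraries and in no DIFF library. Pdgfrb, from the same list of endothelial and pericyte markers, went the other way. At DIFF it was called in 2 WT and 2 p27KO libraries, and at PRO only in 1 p27KO library. The estimates for Pdgfrb were 0.90 in WT and 0.63 in p27KO, and neither passed the test. Rgs5 was called in 1 WT library of each state, and Cdh5 and Tek in none. The part of these other cells in the results below was not tested.

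Peaks near the 8 genes numbered 54, 54 and 47 in WT PRO, 40, 41 and 57 in WT DIFF, 60 and 56 in p27KO PRO, and 45 and 55 in p27KO DIFF. Per 10000 peaks of the list, the means were 6.60 ± 0.398 (SD, n = 3), 6.67 ± 0.392 (n = 3), 6.61 ± 0.101 (n = 2) and 7.08 ± 0.604 (n = 2), so the counts followed the lengths of the lists. The loci were unequally furnished. Neurog1 had 9 to 14 peaks per library (median 10.5) and Neurod2 6 to 14 (9.5), followed by Eomes with 6 to 12 (8.5) and Neurod4 with 6 to 11 (8). Neurog2 had 3 to 7 (4), Neurod1 3 to 4, and Neurod6 and Tbr1 1 to 5 each (3). Against a median of 6.1 peaks over all protein-coding genes, the loci of the latter 4 genes were sparse, with 21.8% (Neurod6) to 31.4% (Neurog2) of genes having fewer. In all, 12 of the 61 regions lay within 3 kb of a start site of the gene itself, 10 within 3 kb of a start site of another gene only (7 of them at Neurod2, beside Stard3 and Ppp1r1b), and 39 were distal. A peak in every library was found at 28 of 61 regions, where 38.2% of all regions had one. The highest of these by mean rank was at Neurog1 44.3 kb upstream, beside the start of Cxcl14 (72.6), at Neurog2 in its coding exon (65.7), at Neurod1 in its coding exon (65.0), at Neurod2 35.0 kb downstream (67.5), at Neurod4 34.4 kb upstream (88.2), at Neurod6 4.3 kb downstream (73.2), at Eomes 28.0 kb downstream, beside the start of Golga4 (72.2), and at Tbr1 12.4 kb downstream (66.2).

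**Figure D1:**
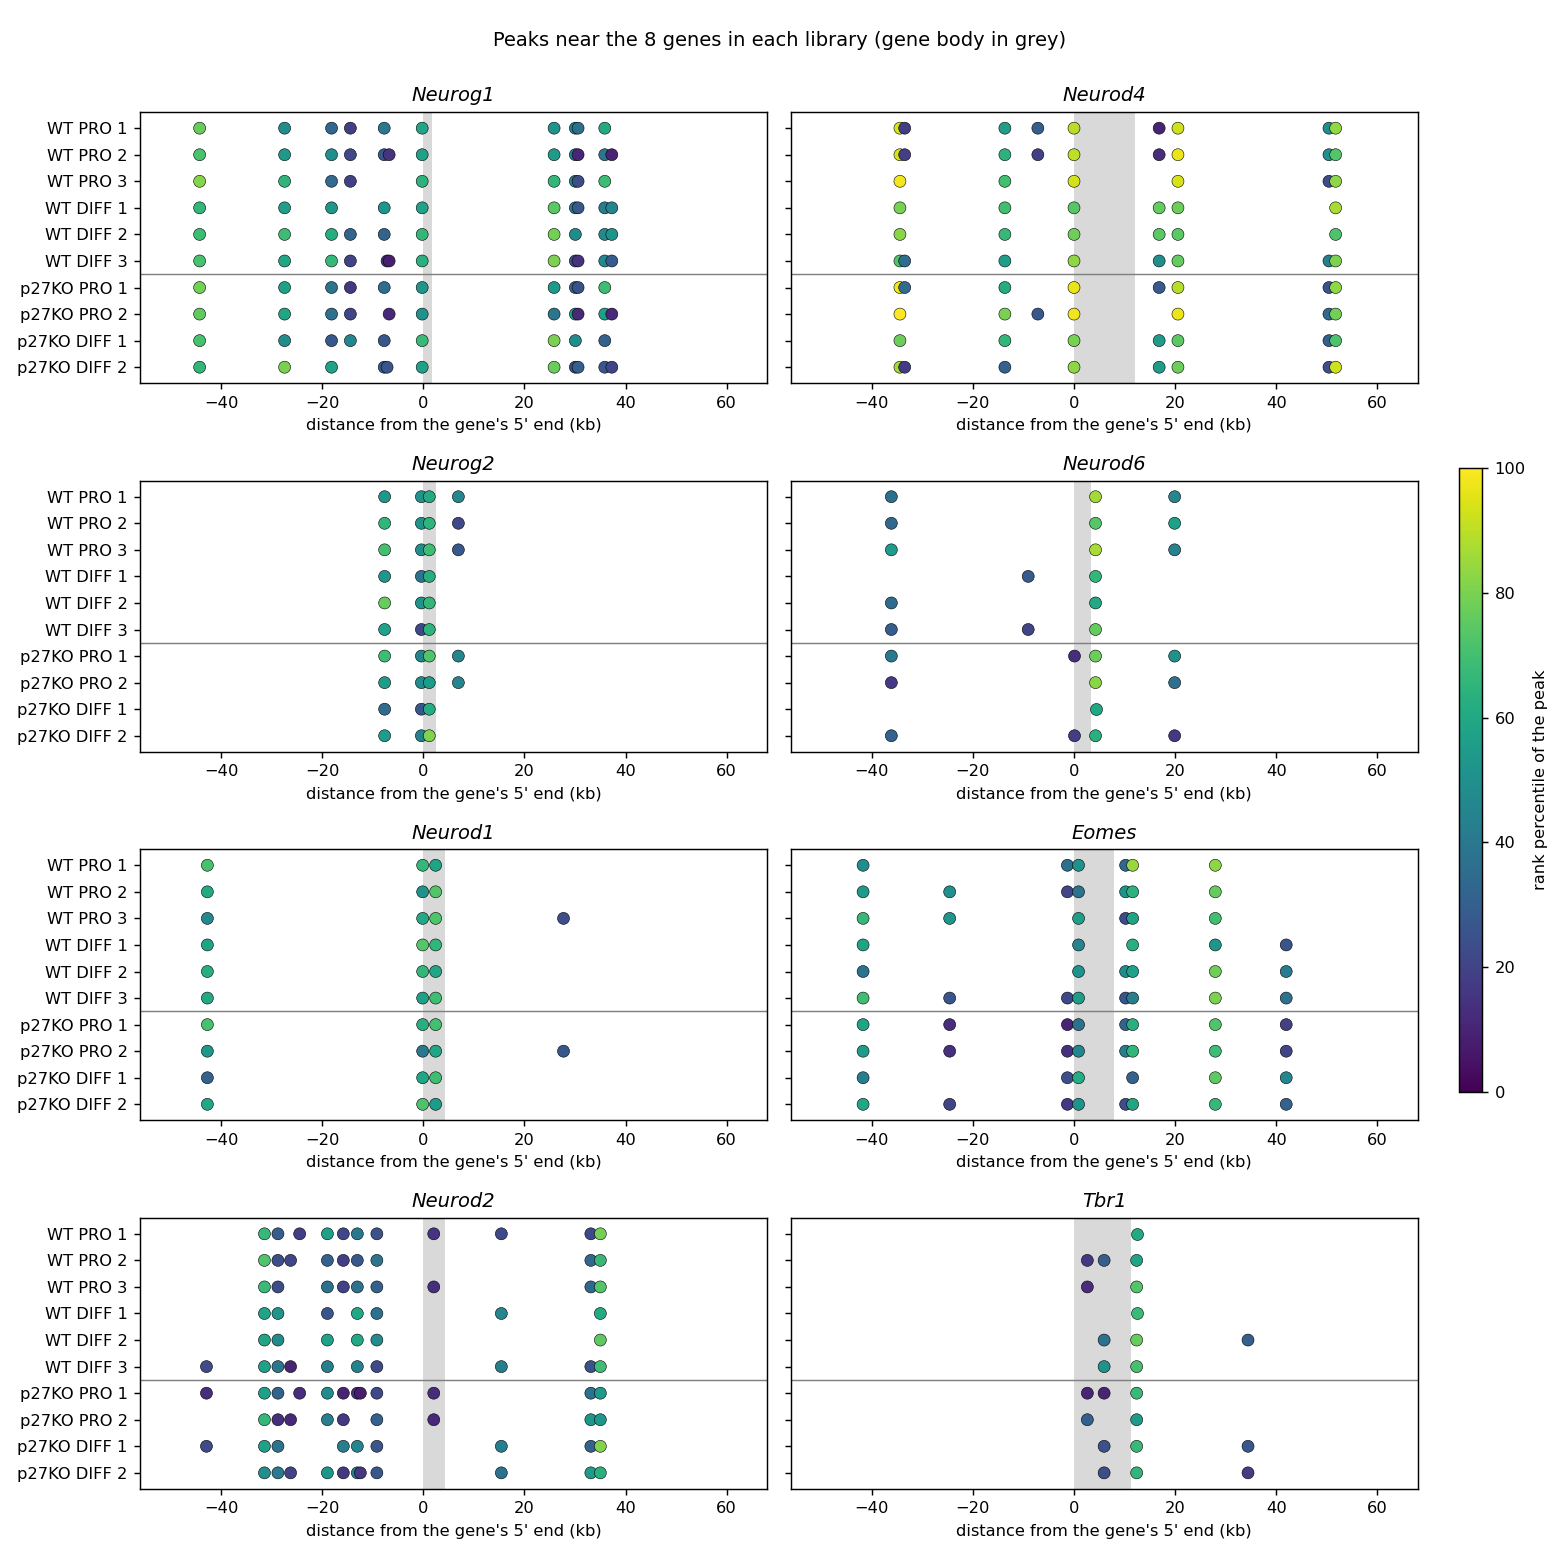
Peaks near the 8 genes, with distance from the 5′ end of the gene in kb on the horizontal axis, 1 row per library and colour giving the rank percentile of the peak. The grey band is the gene body. Neurog1 and Neurod2 carry the most peaks, Neurod4 the highest ranks, and Neurod2, Neurod6 and Tbr1 have few or weak peaks at their 5′ ends.

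A promoter region with a peak in all 10 lists was present for 5 of the 8 genes (Neurog1, Neurog2, Neurod1, Neurod4 and Eomes), which is near the 59.5% of all protein-coding genes that had one. Of the other 3, Neurod2 had a peak in 4 lists, Tbr1 in 4 and Neurod6 in 2. Except at Neurod4, the constant promoters were weak for promoters.

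Neurog1 (chr13:56250478-56252163, minus strand), the neurogenin of early neurogenesis, had its promoter peak at rank percentiles of 58.7, 57.2 and 64.2 in WT PRO and 57.5, 66.1 and 63.3 in WT DIFF. In p27KO the values were 52.2 and 50.5 in PRO and 67.4 and 57.3 in DIFF. The WT groups overlapped and both p27KO PRO libraries lay below the other 8. The mean over the 10 libraries, 59.4 ± 5.70 (SD), was above that of 14.2% of the 13032 promoters with a peak in every list. Merged by 201 bp windows around the summits instead of whole peaks, the promoter split differently, and its DIFF minus PRO change turned from 0.06 to −0.88 in WT and from 0.28 to −0.53 in p27KO, so that no direction is given for it.

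Neurog2 (chr3:127633135-127635631, plus strand), which specifies glutamatergic neurons in the cortex, had a weaker peak 0.4 kb upstream of its start and a stronger one in the coding exon. The upstream peak ranked at 51.4, 51.3 and 49.2 in WT PRO, 38.0, 51.5 and 22.2 in WT DIFF, 45.7 and 47.9 in p27KO PRO, and 27.2 and 43.4 in p27KO DIFF. The lowest values were at DIFF, but the WT groups overlapped, and the change passed in neither genotype (adjusted p = 0.296 in WT and 0.534 in p27KO). The coding exon peak held 55.0 to 80.5 over the 10 libraries. With a mean of 42.8 ± 10.5 the upstream region was above 4.27% of constant promoters, the lowest place among the 5.

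Neurod1 (chr2:79452521-79456751, minus strand), which drives terminal neuronal differentiation, had a promoter peak that ranked at 66.7, 50.6 and 60.4 in WT PRO, 73.1, 66.4 and 57.0 in WT DIFF, 63.2 and 39.7 in p27KO PRO, and 59.3 and 71.5 in p27KO DIFF. Another peak, over its coding exon, held 54.4 to 72.9. Every group overlapped with the others at both. A start site of Cerkl lies 0.11 kb from the summit of the first and its gene spans the second, so these peaks cannot be assigned to Neurod1 alone.

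Eomes (chr9:118478212-118486132, plus strand), the T-box factor of intermediate progenitors, had a constant peak over a coding exon and an inconstant one 1.3 kb upstream. The exon peak ranked at 50.8, 38.5 and 56.1 in WT PRO, 45.0, 50.5 and 55.4 in WT DIFF, 37.7 and 45.4 in p27KO PRO, and 61.6 and 51.8 in p27KO DIFF. Its mean, 49.3 ± 7.66, was above 7.08% of constant promoters. The upstream region was called in 2 WT PRO libraries, 1 WT DIFF library and every p27KO library, at percentiles of 10.1 to 36.7.

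The other 3 genes had faint promoter peaks. Neurod2 (chr11:98325415-98329648, minus strand), which acts in maturing cortical neurons, had a peak over its coding exon 2.1 kb from the 5′ end, at 15.1 and 13.7 in WT PRO replicates 1 and 3 and at 12.1 and 11.7 in p27KO PRO, and none in the 5 DIFF libraries. Tbr1 (chr2:61802930-61814114, plus strand), a determinant of deep-layer cortical neurons, had a like pattern at an intronic region 686 bp before a downstream start site, with 16.0 and 12.5 in WT PRO replicates 2 and 3, 10.1 and 30.5 in p27KO PRO and no DIFF peak. A further Tbr1 region 6.0 kb into the gene was called in 1 WT and 1 p27KO library at PRO and in 2 and 2 libraries at DIFF. At Neurod6 (chr6:55677822-55681263, minus strand), another late cortical NeuroD factor, the promoter peak occurred in 1 p27KO PRO library at 12.7 and 1 p27KO DIFF library at 17.7. A region without a peak is one that the caller did not report, which at the lengths of these lists does not show closed chromatin.

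**Figure D2:**
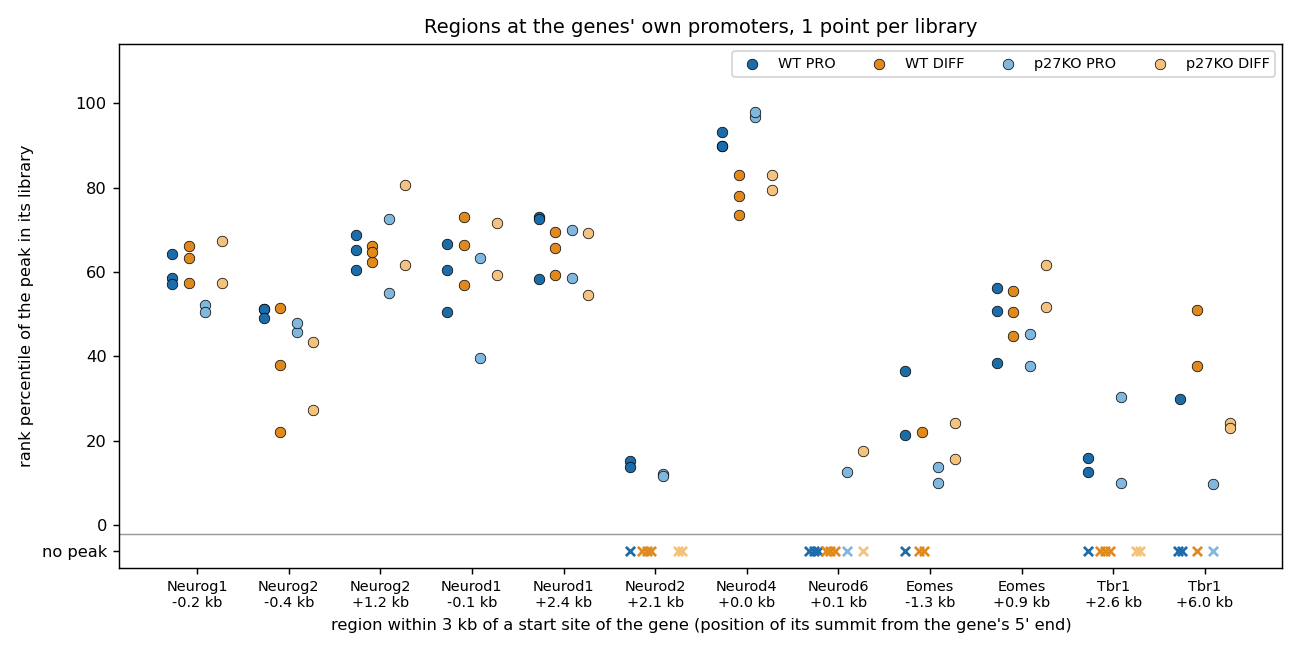
Rank percentile of each region within 3 kb of a start site of its own gene, 1 point per library, with crosses for libraries without a peak. Neurod4 stands highest, at 73.5 to 97.8, Neurog1, Neurog2, Neurod1 and the Eomes exon have a peak in all 10 libraries, and the regions of Neurod2, Neurod6 and Tbr1 do not.

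Neurod4 (chr10:130268152-130280240, minus strand), a NeuroD factor of early differentiating neurons, was the exception in level and in change. Its promoter region (chr10:130279931-130280641), over the 5′ UTR, ranked at 89.8, 89.8 and 93.2 in WT PRO and 73.5, 78.0 and 83.0 in WT DIFF. In p27KO it ranked at 96.7 and 97.8 in PRO and 79.4 and 82.9 in DIFF. Within each genotype the PRO libraries lay above all DIFF libraries. On the normal score of the rank, where 1 unit is 1 SD of a normal distribution, the promoter fell by 0.55 ± 0.17 (SE) in WT (limma, adjusted p = 0.0455) and by 1.04 ± 0.21 in p27KO (adjusted p = 0.00923). The mean over the 10 libraries, 86.4 ± 8.26, was above 59.1% of constant promoters. Its 201 bp summit window had no CANNTG and neither did the 250 bp before its start, where 66% of 27025 promoters have one.

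The region 34.4 kb upstream of Neurod4 (chr10:130314110-130314798), with 6 E-boxes in the window printed above, ranked at 94.2, 94.1 and 98.2 in WT PRO and at 98.7 and 99.2 in p27KO PRO. At DIFF it ranked at 79.6, 82.3 and 72.5 in WT and at 77.6 and 86.0 in p27KO. Its fold enrichment over the local background was 14.2, 14.4 and 16.1 against 8.35, 8.47 and 9.14 in WT, and 18.8 and 19.1 against 8.92 and 12.8 in p27KO. PRO and DIFF did not overlap on either scale. The ranks come from these same fold enrichments, whose absolute size is not comparable between libraries, so the scales are not separate evidence. On the normal score the fall was 0.96 ± 0.21 in WT (limma, adjusted p = 0.00811) and 1.40 ± 0.25 in p27KO (adjusted p = 0.00487). The start site of Tespa1, 8.20 kb away, is nearer to this region than that of Neurod4.

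The region 20.6 kb downstream (chr10:130259199-130259961), beyond the 3′ end of the gene, was the other E-box-rich one and followed the same course. It ranked at 92.3, 97.0 and 93.8 in WT PRO, 77.5, 74.4 and 76.1 in WT DIFF, 88.8 and 97.2 in p27KO PRO, and 74.8 and 77.4 in p27KO DIFF. The change was −0.91 ± 0.21 in WT (adjusted p = 0.0122) and −0.86 ± 0.26 in p27KO, which missed the threshold (adjusted p = 0.0557). Between it and the gene, the region 16.9 kb downstream (chr10:130263014-130263554) went the other way. It ranked at 9.75 and 12.9 in WT PRO replicates 1 and 2, had no peak in replicate 3, and ranked at 76.2, 74.6 and 49.0 in WT DIFF. In p27KO it ranked at 28.4 and had no peak in PRO and ranked at 54.6 and 55.1 in DIFF. This was the steepest rise among the 48 tested regions in WT, by 1.79 ± 0.30 (adjusted p = 0.00179), and in p27KO it rose by 1.25 ± 0.36 (adjusted p = 0.0454). Neurod4 thus had 4 of 8 tested regions past the threshold in WT (3 lower, 1 higher) and 3 of 8 in p27KO (2 lower, 1 higher), where 19.2% and 12.3% of all tested regions passed.

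Of these Neurod4 calls, those in WT 34.4 kb upstream and 16.9 kb downstream held when any single library was left out and in every other alternative that could be run. The WT call at the promoter was lost in 9 of 10 omissions, every one but that of WT DIFF replicate 3 (adjusted p from 0.0456 to 0.150). It was also lost with a replicate block (0.0570), with the compared groups alone (0.0736), with summit windows (0.0505) and with regions called in 2 or more libraries (0.0658). The WT call 20.6 kb downstream was lost without WT PRO replicate 2 (adjusted p = 0.0552). In p27KO the calls at the promoter and 34.4 kb upstream were lost without PRO replicate 2 (adjusted p = 0.0790 and 0.0512) or DIFF replicate 1 (0.0761 and 0.0555). The p27KO call 16.9 kb downstream was lost in 8 of 10 omissions, all but those of WT DIFF replicate 3 and p27KO PRO replicate 1 (adjusted p from 0.0211 to 0.371). It was lost as well when ranked by column 8, the p-value (0.109), with regions called in 2 or more libraries (0.0942), with summit windows (0.0600) and with the compared groups alone (0.0845). With the common floor each of these Neurod4 calls held, and the p27KO change 20.6 kb downstream passed (−0.88, adjusted p = 0.0491).

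The neurogenins had differences away from their promoters. At Neurog1 the region 25.9 kb downstream (chr13:56226084-56226809), inside the long non-coding RNA 4930550C17Rik, ranked at 51.2, 54.7 and 66.0 in WT PRO and 74.6, 78.9 and 80.3 in WT DIFF. In p27KO it ranked at 53.9 and 39.1 in PRO and 79.7 and 77.1 in DIFF. Each DIFF library lay above each PRO library, and the rise was 0.59 ± 0.18 in WT (adjusted p = 0.0470) and 0.88 ± 0.23 in p27KO (adjusted p = 0.0275). The region 37.3 kb downstream (chr13:56214431-56215087) had 1 peak in WT PRO at 9.80 and 3 in WT DIFF at 45.5, 51.6 and 28.9. In p27KO it had 1 peak in PRO at 11.0 and 1 in DIFF at 20.3. Of its 6 peaks 3 were in WT DIFF, so the minimum of 5 libraries itself favours a rise in WT. It rose by 1.32 ± 0.25 in WT (adjusted p = 0.00366), and with the common floor by 0.85 (adjusted p = 0.0101). With lists reduced to the length of the shortest or with summit windows the region could not be tested. A start site of Tifab, 36 kb away, is slightly nearer to it than that of Neurog1. The estimate in p27KO was 0.54 ± 0.30 (adjusted p = 0.296). The difference between the genotypes did not pass the test of the interaction.

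At Neurog2 a region 6.9 kb downstream of the 5′ end (chr3:127639882-127640189), past the 3′ end of the gene, was present in every PRO library and absent from every DIFF list. It ranked at 46.4, 21.7 and 27.2 in WT PRO and 45.9 and 45.7 in p27KO PRO. All its 5 peaks were in PRO, so it met the minimum of 5 libraries for a test only through the state in which it is high, and its call as lower in both genotypes is no support for a difference. With the common floor that call ended in WT (adjusted p = 0.386) and in p27KO (0.0622). The window printed above is rich in CpG, with 1 E-box and a GC content of 67.7%. The WT call at Neurog1 25.9 kb was lost in 9 of 10 omissions, all but that of WT PRO replicate 3 (adjusted p from 0.0470 to 0.147), and the p27KO call without p27KO PRO replicate 2, DIFF replicate 1 or DIFF replicate 2 (0.204, 0.138 and 0.100). The WT call was also lost with a replicate block (0.0642), with the compared groups alone (0.0656), with summit windows (0.0541) and with regions called in 2 or more libraries (0.0775). The p27KO call was lost with the compared groups alone (0.0725) and with regions called in 2 or more libraries (0.0517). With the common floor both held.

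At Eomes the region 42.0 kb downstream (chr9:118519957-118520290), in an intron of Golga4 and 6.02 kb from its start site, had no peak in WT PRO and ranked at 26.4, 41.3 and 37.6 in WT DIFF. In p27KO it had a peak already in PRO, at 19.2 and 20.2, and ranked at 45.8 and 30.7 in DIFF. The rise in WT was 1.29 ± 0.19 (adjusted p = 0.000814) and passed without any single library, but it rests on weak peaks. In WT DIFF replicate 1, where 25.1% of tested regions had no peak, the rank of 26.4 is that of a peak near the bottom of the list (fold enrichment 3.04). With the common floor the estimate in WT was 0.55 and no longer passed (adjusted p = 0.129), and with lists cut to the length of the shortest the region had too few peaks for a test. The estimate in p27KO was 0.54 ± 0.23 (adjusted p = 0.160). Eomes and Tbr1 had no other region past the threshold in either genotype.

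Among the late NeuroD genes, Neurod6 had a region 19.9 kb downstream of its 5′ end (chr6:55661233-55661963) that was present in every PRO library, at 46.4, 57.3 and 44.3 in WT and 50.7 and 36.9 in p27KO. It had no peak in WT DIFF and 1 in p27KO DIFF, at 16.0. Of its 6 peaks 5 were in PRO, so the minimum of 5 libraries itself favours a fall. It fell by 1.33 ± 0.22 in WT (adjusted p = 0.00199), which held under each omission and with the common floor (−1.07, adjusted p = 0.00147), and by 0.98 ± 0.27 in p27KO (adjusted p = 0.0398), which was lost in 9 of 10 omissions, all but that of WT DIFF replicate 3 (adjusted p from 0.0287 to 0.229), and with the compared groups alone (0.0567). The strongest constant peak of Neurod6, 4.3 kb downstream of the 5′ end, ranked at 86.0, 73.8 and 87.0 in WT PRO and 65.8, 60.1 and 76.5 in WT DIFF, then 77.7 and 82.2 in p27KO PRO and 59.6 and 63.3 in p27KO DIFF. There the WT groups overlapped and neither change passed (adjusted p = 0.125 and 0.190).

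Neurod2 had 2 regions past the threshold in p27KO and none in WT. The region 13.1 kb upstream (chr11:98342358-98343038) ranked at 39.97, 26.98 and 37.46 in WT PRO, 60.1, 59.9 and 44.9 in WT DIFF, 14.9 and no peak in p27KO PRO, and 45.5 and 43.7 in p27KO DIFF. PRO lay below DIFF in both genotypes. A start site of Ppp1r1b, 5.68 kb away, is nearer to this region than that of Neurod2. The region 15.4 kb downstream (chr11:98314080-98314389) had 1 of 3 peaks in WT PRO at 21.9 and 2 of 3 in WT DIFF at 45.9 and 42.7. It had none in p27KO PRO and ranked at 42.3 and 37.8 in p27KO DIFF. All but 1 of its 5 peaks were in DIFF, so the minimum of 5 libraries itself favours a rise. The rises in p27KO were 1.23 ± 0.27 (adjusted p = 0.0119) and 1.58 ± 0.38 (adjusted p = 0.0192), and the estimates in WT were 0.52 ± 0.22 (adjusted p = 0.121) and 0.90 ± 0.31 (adjusted p = 0.0639). The first p27KO call was lost without p27KO PRO replicate 2 (0.147) or either p27KO DIFF library (0.0670 and 0.0581), and the second without either p27KO PRO library (0.127 and 0.0974). With the common floor neither passed in p27KO (0.0508 and 0.0939). The second can be refitted only without a library that lacks it, and it passed in WT when WT DIFF replicate 2, the library without a peak, was left out (1.29, adjusted p = 0.0196).

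**Figure D3:**
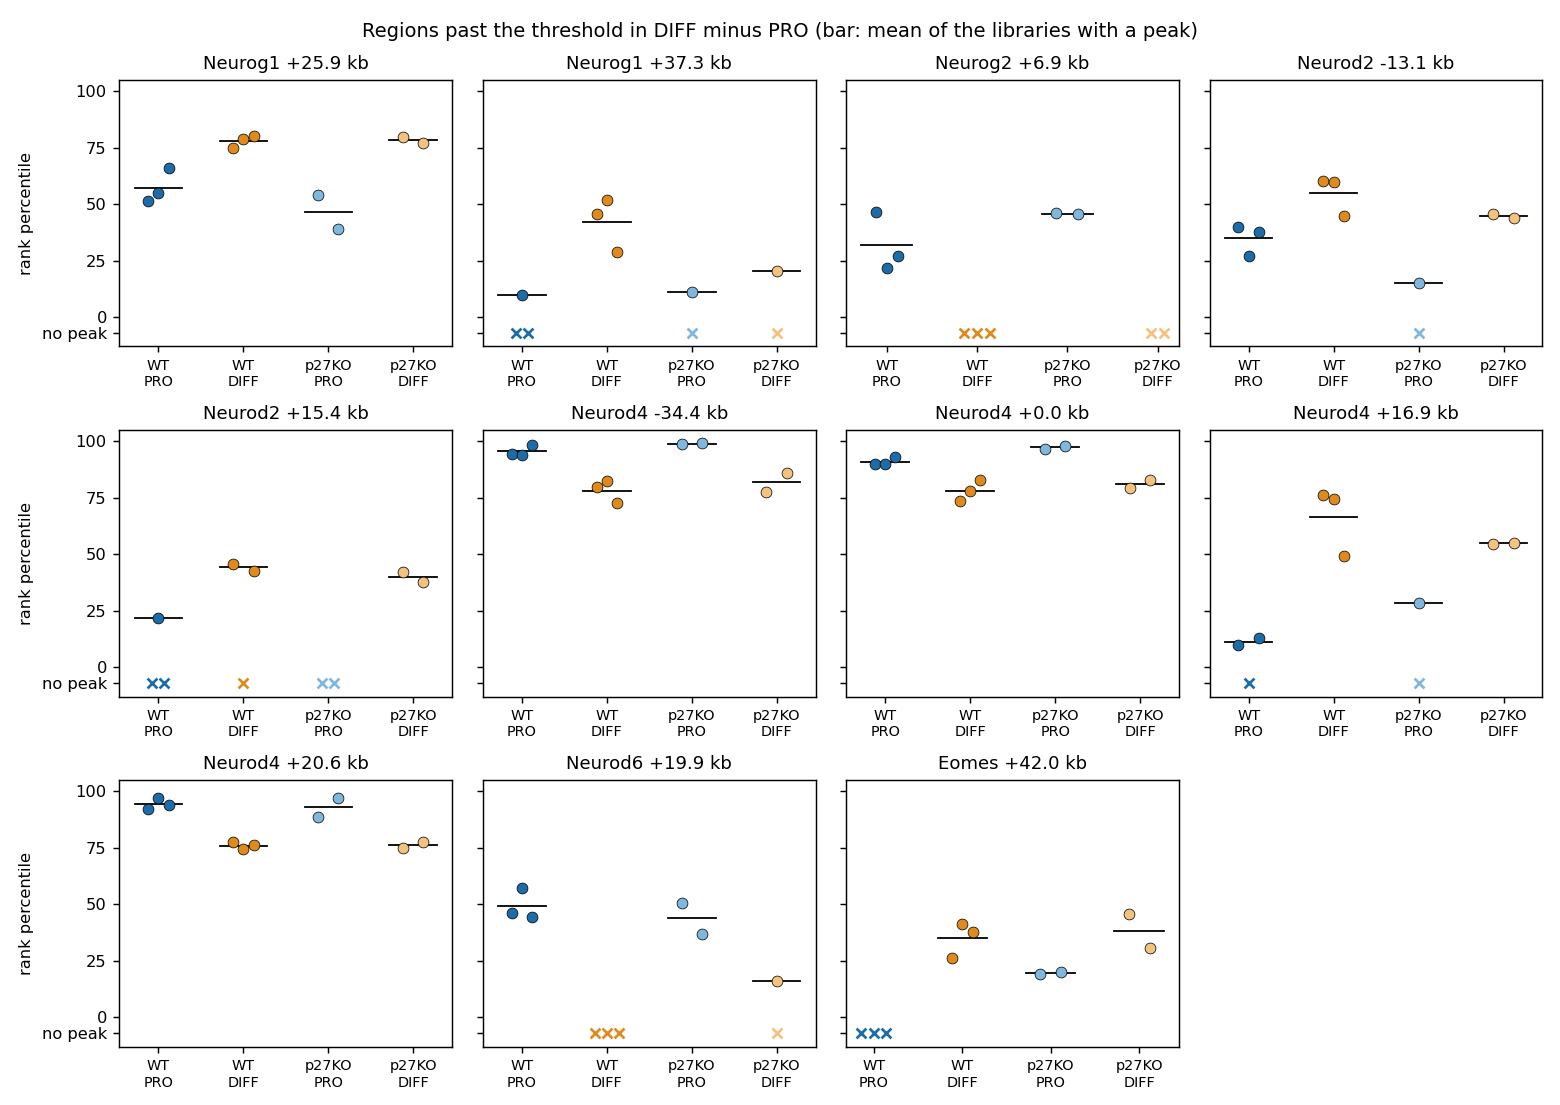
Rank percentile of the 11 regions past the threshold in DIFF minus PRO in at least 1 genotype, 1 point per library, with the mean of the libraries that have a peak as a bar and crosses for libraries without one. The regions of Neurod4 at −34.4, 0.0 and +20.6 kb are at 72.5 to 86.0 in DIFF and at 88.8 to 99.2 in PRO.

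Counted together, 9 of the 48 regions (18.8%) passed in WT, 5 lower and 4 higher at DIFF, and 15 did at an unadjusted p under 0.05. Of all tested regions 19.2% passed (10.1% lower and 9.15% higher), so that the share at the 8 genes was near that of the genome. In p27KO 8 of 48 (16.7%) passed, 4 lower and 4 higher, with 12 at an unadjusted p under 0.05, against 12.3% of all regions (6.48% lower and 5.83% higher). The median change over the 48 regions was −0.02 in WT and 0.02 in p27KO, against 0.03 and 0.04 over all tested regions. The counts include the Neurog2 region whose peaks were all in PRO. Among regions with a peak in both states, another alternative added after seeing the data, 8 of 47 passed in WT and 7 of 47 in p27KO, against 16.3% and 9.84% of all such regions. Of the 11 regions that passed in either genotype, 6 passed in both (the Neurog2 region among them) and all 11 had an estimate of the same sign in both. The like shares over all tested regions were not counted, so these counts are not read as particular to the 8 genes. Without p27KO PRO replicate 2 or p27KO DIFF replicate 1 no region of the 8 genes passed in p27KO, and without p27KO DIFF replicate 2 there were 2, while the share over all tested regions fell to 4.76%, 4.41% and 4.51%. Without WT PRO replicate 1, 4 of 45 passed in p27KO, against 10.2% of all tested regions. Without WT DIFF replicate 1, 5 of 47 did, against 9.49%. In WT 5 to 8 passed without 1 WT library, against 12.2% to 15.5% of all tested regions. The lowest, 5 of 46, was without WT PRO replicate 2 (12.5% of all).

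By presence alone, a region was taken as closed when each PRO library and no DIFF library of a genotype had a peak, and as opened in the reverse case. In WT 3 of the 61 regions closed (Neurog2 +6.9 kb, Neurod2 −15.8 kb and Neurod6 +19.9 kb), where 4.32% of all regions did, and 1 opened (Eomes +42.0 kb), where 1.86% did. In p27KO 3 closed (Neurog2 +6.9 kb, Neurod2 +2.1 kb and Tbr1 +2.6 kb) against 10.9%, and 2 opened (Neurod2 +15.4 kb and Tbr1 +34.4 kb) against 3.32%. The Neurog2 region was the one closed in both genotypes. With 2 libraries a group, the p27KO rule is the easier to meet.

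The comparison of genotypes asks whether loss of p27 alters accessibility at these genes. None of the 48 regions differed between p27KO and WT at PRO by limma (5 at an unadjusted p under 0.05, lowest adjusted p = 0.492), where 0.034% of all regions did. At DIFF the count was 0 as well (3 at an unadjusted p under 0.05, lowest adjusted p = 0.901), against 0.0156% of all regions. The estimates ran from −0.97 to 0.84 at PRO and from −0.82 to 0.79 at DIFF. No region passed the interaction, that is, the difference between the genotypes in their DIFF minus PRO change (2 at an unadjusted p under 0.05, at Neurod2 −15.8 kb and Eomes +42.0 kb), and 0% of all regions did. With 2 p27KO libraries a group, this does not show that the genotypes are alike at these loci.

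**Figure D4:**
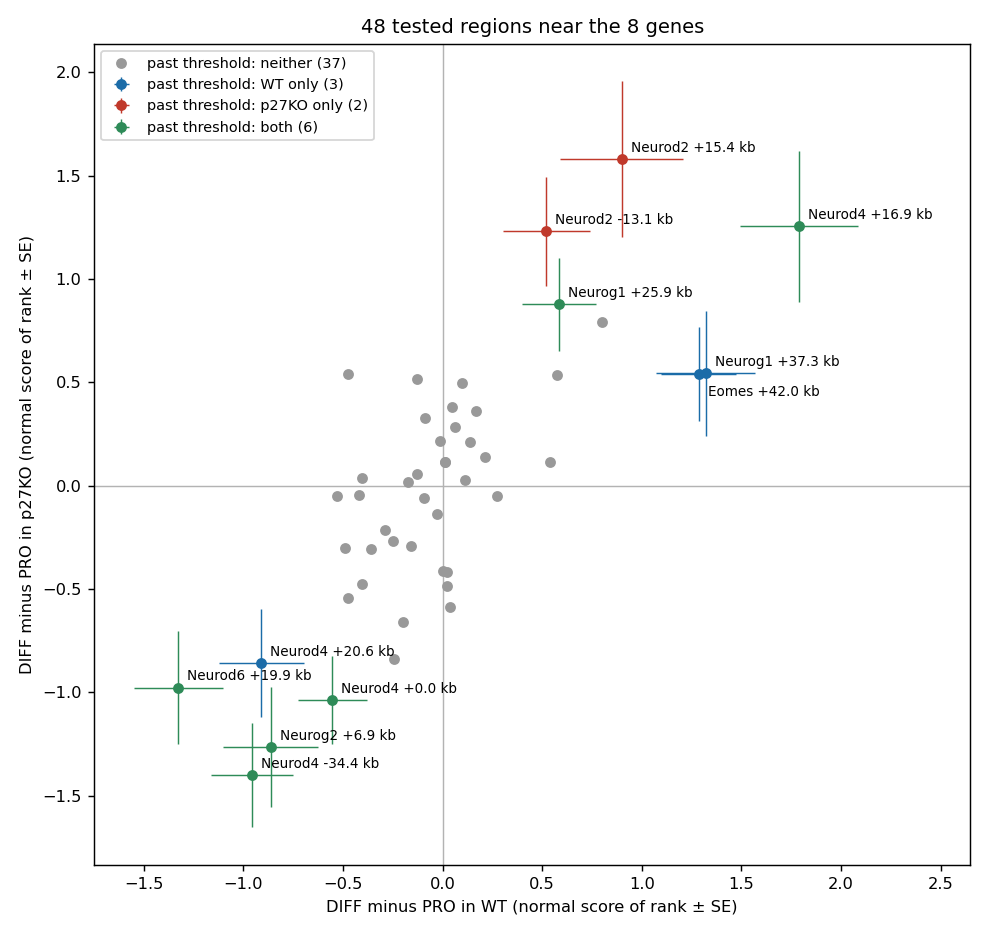
Change from PRO to DIFF in WT (horizontal) and in p27KO (vertical) for the 48 tested regions, in normal scores of the rank, with bars of 1 SE for those past the threshold. The 11 regions past the threshold in either genotype lie in the lower left or the upper right of the plot, and 37 passed in neither.

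The genes around this cascade had their promoters largely in place in both states. Of 45 pathway genes 40 had a promoter region and 35 had a peak there in every library, with none at Neurog3, Olig3, Nhlh1, Nhlh2 and Dcx. Of all 21911 protein-coding genes 15995 had a promoter region, and 59.5% had a peak there in every library. All 8 genes listed as inhibitors (Hes, Hey and Id genes and Rest) and all 3 dimer partners had one in every library. So did 5 of 6 upstream and regional factors, 4 of 6 bHLH relatives, 11 of 16 neurogenic targets and 4 of 6 glutamatergic neuron genes. Of the 37 that could be tested, 0 fell and 2 rose at DIFF in WT. Of all 14831 tested promoter regions 4.95% passed there, 325 lower and 409 higher. The 2 that rose were Stmn2, a microtubule regulator of growing neurites (0.63, adjusted p = 0.0447), and Slc17a6, a vesicular glutamate transporter (0.54, adjusted p = 0.0484). In p27KO 0 fell and 2 rose, namely Slc17a6 (0.76, adjusted p = 0.0390) and Elavl3, a neuronal RNA-binding protein (1.18, adjusted p = 0.0216). Of all tested promoter regions 2.33% passed in p27KO, 159 lower and 186 higher. No pathway promoter passed in the genotype or interaction contrasts. These promoters were not refitted under the alternatives.

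Among the 14831 genes with a tested promoter, those whose promoter score ran most like that of Neurog1 over the 10 libraries were Polr3d (Pearson r = 0.917), Armc1 (0.917) and Nek6 (0.910). For Neurog2 they were Slc39a11 (0.932), Dcdc2b (0.916) and Ttc12 (0.915), and for Neurod1 they were Syngr1 (0.986), Ei24 (0.913) and Kdelr3 (0.906). For Neurod4 they were Btn1a1 (0.949), Col6a3 (0.940) and Rapgef3 (0.933), and for Eomes they were B830017H08Rik (0.967), Car15 (0.967) and Polr3d (0.939). These are the highest of many correlations over few libraries that share their depth, and they are given as a description.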

How the data were processed

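ATAC-seq peak lists of 10 libraries were used, each called by the authors on a single library. Per the labels and methods, adapters were clipped with Cutadapt, reads trimmed with Trimmomatic and mapped to GRCm38 with Bowtie2, duplicates marked with Picard and narrow peaks called with MACS2 without a model at an FDR of 0.05. Tool versions are not given in the sources used here. Column 7 of the deposited lists is a fold enrichment (a ratio to the local background), column 8 a −log10 p-value and column 9 a −log10 q-value, as the authors' caller wrote them. The read depth per library is unknown, so precision is that of the spread between libraries. Groups were taken from the titles, since a free-text label of the p27KO libraries speaks of WT cells.

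Peaks overlapping by at least 1 bp were merged. Column 7 was ranked within each library over the 70627 regions called in 5 or more libraries (absent peaks tied lowest) and turned into normal scores. These were fitted with limma 3.58.1 in R 4.3.3, with 4 group means, 5 contrasts and Benjamini-Hochberg adjustment over all regions at 0.05. Regions named singly were those past the threshold in any contrast, those within 3 kb of the gene's own start sites, those closed or opened in both genotypes, and the highest constant region of each gene. Further names were chosen after their values were seen. The fit was tested on simulated data with shifts of the score set in WT DIFF. It recovered 27% of 100 shifts of 1.5 and 96% of 100 shifts of 3. Few regions changed there, unlike in the data, and shifts of 1.5 were mostly missed. The members and gene lists were chosen with earlier results of these data known. Same-numbered libraries were at most weakly alike (correlations of same-numbered deviations from −0.141 to 0.0647 over 13 pairs). Between WT PRO and WT DIFF these were 0.0575, 0.0647 and 0.0328, all positive. The lowest was that of p27KO PRO and DIFF, where 2 libraries per group give a single value. The main fit used no block, and a replicate block was tried as an alternative. The alternatives tried are given in the closing section. Promoter sequences were from RefSeq and genome windows from GRCm38.p6, gene models from GENCODE.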

Additional observations from a re-analysis of the deposited data

How the results depend on the processing

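No list gave the read depth, and 2 libraries per p27KO group limit every p27KO value. Of the 17 changes past the threshold, none turned sign under any alternative that could be run: 101 of 155 refits without 1 library and 116 of 137 other refits kept the call. The changes were chosen for passing in these same libraries, so a kept sign is no separate support for them. The refits include those of the Neurog2 region whose peaks were all in PRO. The count of regions past the threshold in WT, 9, was 4 of the 28 regions with a peak in all 10 libraries (12.9% of all such regions passed). It was 4 of the 19 within 10 kb of the genes (19.2% of all regions), where fewer regions are tested. Without 1 WT library it was 5 to 8 (12.2% to 15.5% of all regions). In p27KO the count of 8 was 5 of 28 all-10 regions (6.33% of all), 3 of 19 within 10 kb (12.3%), 5 when the compared groups were fitted alone (10.4%), and 0 to 7 without 1 library. Where this left 1 library in a group, it was assumed to vary like the others. With a replicate block the count was 7 of 48 in WT (18.45% of all tested regions) and 8 of 48 in p27KO (11.74%). The WT calls at the Neurod4 promoter (adjusted p = 0.0570) and at Neurog1 25.9 kb (0.0642) ended there. With the common floor of the ranks, chosen after seeing the data, the counts were 8 and 7 of 46 (18.67% and 12.24% of all). Crossing the p27KO numbers, an alternative chosen after seeing the data because of their negative correlation, gave 7 and 8 of 48 as well (19.03% and 12.15%). The interaction and genotype counts stayed at 0 in each alternative run, the omissions included.

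Regions closed in WT went from 3 to 1 with lists reduced to the length of the shortest and 1 within 10 kb (3 to 5 without 1 library). Regions opened in WT went from 1 to 2 with the shortest length, with a −log10 q of at least 2, with summit windows and within 100 kb, and to 0 within 10 kb (1 to 2). In p27KO the closed regions went from 3 to 1 in regions with at least 5 libraries, also chosen after seeing the data, and to 5 within 100 kb (3 to 9). The opened ones went from 2 to 1 and, within 10 kb, to 0 (2 to 6). Presence in all-10 regions gives none by construction. Peaks per library averaged 50.9, then 38.5 with the shortest length, 22.3 within 10 kb and 76.5 within 100 kb (49.9 to 52.1), and per 10000 peaks 6.72, 2.95 and 10.1 within 10 and 100 kb (6.63 to 6.78).

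The sign turned in changes that had not passed. With summit windows the Neurog1 promoter gave −0.88 in WT and −0.53 in p27KO. The Eomes exon in WT gave −0.12 ranked by column 8 and −0.082 in all-10 regions, and ran from −0.11 to 0.13 without 1 library. Without 1 library the Neurog2 exon ran from −0.078 to 0.031 in WT and from −0.059 to 0.51 in p27KO, the Neurod1 exon from −0.26 to 0.15 in p27KO, and the region 1.3 kb upstream of Eomes from −0.50 to 0.12 in WT. The causes were not tested.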

Other observations

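Of the 70509 windows of 201 bp around the summits of tested regions, 215 held 6 or more E-boxes, and the regions 34.4 kb upstream and 20.6 kb downstream at Neurod4 were the 2 among the 48 of the 8 genes. This number of E-boxes was chosen after these windows had been seen. Of the 215 regions, 45 (20.9%) passed the threshold as lower at DIFF in WT and 10 (4.65%) as higher, where 10.1% and 9.15% of all tested regions did. In p27KO 27 (12.6%) passed as lower and 4 (1.86%) as higher, against 6.48% and 5.83%. These shares are given as counts without a test, and the part of GC content, signal level or neighbouring motifs in them was not tested.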
